A study of Homo sapiens with 9 samples.

Results

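The peaks described here are sites where RNA polymerase II was detected on chromatin with no annotated gene beneath the summit. They came from 3 deposited ChIP-seq lists, made by sequencing DNA recovered with POLR2A from the chromatin of HEK293T, a line of human embryonic kidney origin that carries the SV40 large T antigen. POLR2A is the largest subunit of RNA polymerase II. Cells carried a control shRNA (shCtrl), or had been depleted of U2AF1, a splicing factor that recognises the AG at the end of introns, or of DHX9, a helicase that unwinds RNA and R-loops. There were 2 ChIP replicates and 1 input sample per condition but 1 deposited list, so the spread between replicates cannot be seen and no difference between lists was tested. The names of the control peaks carry the number of replicate 1, so the control list may rest on 1 library. Sequencing depth cannot be read from peak lists and is unknown here.

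A peak was taken when its summit, the position of its highest signal, lay outside every gene of GENCODE version 44 and more than 1000 bp from every transcript start. Chromosomes 1 to 22 and X were used, without the first 14 Mb of chromosome 21. The rule took 647 of the 8480 peaks in scope, of 8930 deposited. It took 296 of 2638 control peaks, a share of 11.2% with a 95% Wilson interval of 10.1 to 12.5%. The remainder of the 647 came from 180 DHX9 knockdown peaks and the U2AF1 knockdown list, where the share was 10.8% of 1577 peaks (9.40 to 12.5%). The 180 were 4.22% of 4265 DHX9 knockdown peaks (3.66 to 4.87%). The intervals cover counting error only, since the peaks of a list are not replicates. Most other peaks were at start sites, with 2300 in the control, 1278 in the U2AF1 knockdown and 3924 in the DHX9 knockdown list.

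Outside genes, the human genome holds several kinds of repeated DNA. Alpha satellite is the tandem repeat of centromeres, and some of its units carry the CENP-B box, the binding site of the centromere protein CENP-B. Classical satellites built on the pentamer CATTC lie in heterochromatin beside several centromeres, and chromosome ends consist of the hexamer TTAGGG. RNA polymerase II is known to transcribe centromeric, pericentromeric and telomeric repeats, and outside repeats it also occupies enhancers, the DNA past gene ends and unannotated promoters. Short reads from repeats match many places, so a position there is one assignment among many copies, and the centromere arrays of GRCh38 are modelled sequences.

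The sequences at the summits were of a few recognisable kinds. The first 3 stand for sequence groups that the counts turn on, and each is the strongest peak of its group in the named list on the chromosomes from which sequence is printed, except that the alpha satellite is the strongest more than 100 kb from a gene. They are the forward strand of GRCh38 around the summit. Capitals mark, in turn, bases that recur 340 bp downstream, the words CATTC or GAATG, and CpG dinucleotides. The alpha and CATTC examples are from the control list and the CpG-rich site from the DHX9 knockdown list.
alpha satellite, chr1:122773387-122773557: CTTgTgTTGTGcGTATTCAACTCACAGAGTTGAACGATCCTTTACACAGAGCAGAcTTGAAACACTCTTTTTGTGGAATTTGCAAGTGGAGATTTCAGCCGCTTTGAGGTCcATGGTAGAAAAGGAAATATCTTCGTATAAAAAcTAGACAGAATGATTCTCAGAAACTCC
CATTC satellite, chr1:125167111-125167231: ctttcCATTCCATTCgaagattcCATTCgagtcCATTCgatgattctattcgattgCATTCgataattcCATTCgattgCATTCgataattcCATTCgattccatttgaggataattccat
CpG-rich, chr17:81488069-81488189: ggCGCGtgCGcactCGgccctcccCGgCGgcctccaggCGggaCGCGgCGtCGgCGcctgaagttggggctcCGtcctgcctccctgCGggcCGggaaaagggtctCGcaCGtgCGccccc

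The next 7 are shown because they lie beside the sites of the single-copy group that had a peak in all 3 lists. This group leaves out sites placed in another group, such as the CpG-rich site above, even where their sequence is single-copy. Each of the 7 is named by the nearest gene. Capitals mark the octamer ATGCAAAT, the motif of POU-domain factors such as OCT1 and of the distal elements of snRNA promoters. Each is given 5′ to 3′ on the strand that carries the octamer.
CYP1A2, chr15:74760724-74760783, plus strand: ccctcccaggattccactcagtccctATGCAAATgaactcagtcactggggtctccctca
ENSG00000234455, chr2:121075469-121075528, plus strand: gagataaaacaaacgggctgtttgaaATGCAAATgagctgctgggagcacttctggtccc
RNU7-56P, chrX:16772020-16772079, plus strand: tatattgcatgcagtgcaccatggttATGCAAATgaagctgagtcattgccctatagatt
GNA12, chr7:2873863-2873922, minus strand: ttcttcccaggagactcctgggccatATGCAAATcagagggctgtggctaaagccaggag
CCDC200, chr17:43315678-43315737, plus strand: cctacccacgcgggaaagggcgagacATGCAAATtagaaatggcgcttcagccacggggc
TRPC6P5, chr11:121227137-121227196, plus strand: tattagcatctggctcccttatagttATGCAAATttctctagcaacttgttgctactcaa
OR6J1, chr14:22650819-22650878, minus strand: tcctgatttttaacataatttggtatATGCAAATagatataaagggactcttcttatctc

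Satellite and telomere DNA held most outside-gene peaks of the control list and a minority of those of the DHX9 knockdown list. The count in alpha satellite, CATTC satellite or telomere repeat was 254 of 296 in the control list, or 85.8% (81.4 to 89.3%). For U2AF1 knockdown it was 89, or 52.0% (44.6 to 59.4%), and for DHX9 knockdown 42 of 180, or 23.3% (17.8 to 30%). Every peak was placed in 1 of 8 groups, which were drawn up after the sequences had been seen. Among the peaks at start sites and in gene bodies, a satellite lay under 0 of 2342 control, 1 of 1406 U2AF1 knockdown and 0 of 4085 DHX9 knockdown summits. The rule largely sets this contrast, since control alpha satellite members lay a median of 1092 kb from the nearest gene.

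**Figure D1:**
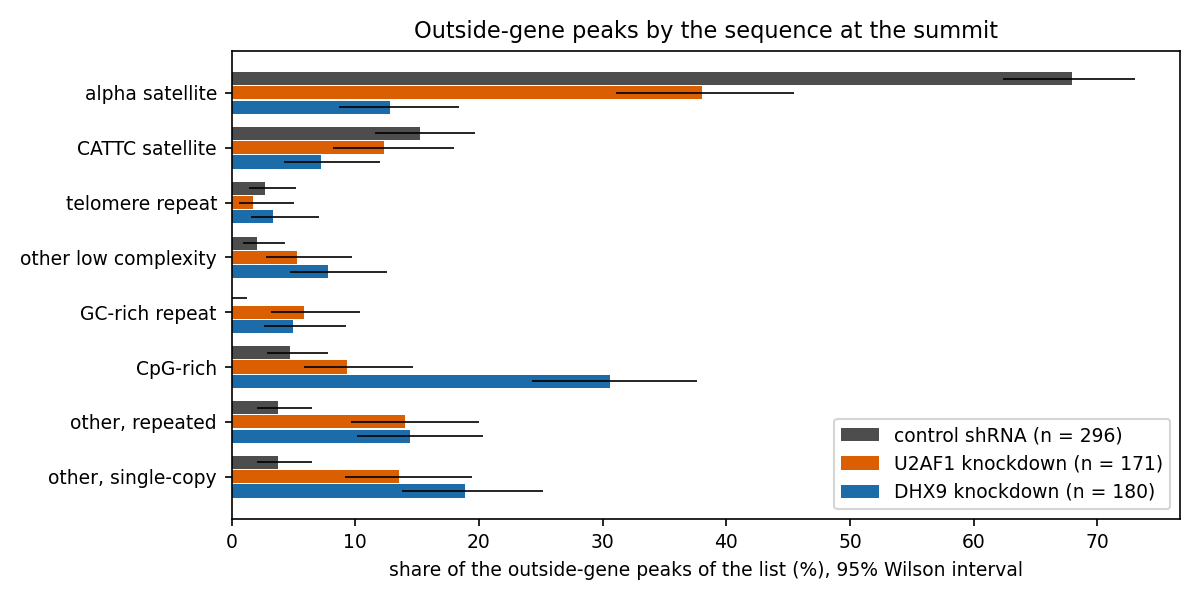
Bars give the share of each list's outside-gene peaks, in percent, in each of 8 groups of summit sequence, with 95% Wilson intervals for counting error as lines. Alpha satellite runs from 67.9% in the control list to 12.8% in the DHX9 knockdown list, and CpG-rich sequence from 4.73% to 30.6%.

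Alpha satellite was the largest group of the control list, with 67.9% (62.4 to 73.0%) of its members. It held 65 peaks or 38.0% (31.1 to 45.5%) in the U2AF1 knockdown list and 23 peaks or 12.8% (8.67 to 18.4%) in the DHX9 knockdown list. Such sequence, in which the bases within 2 kb of a position match themselves by at least 40% at the period of the alpha monomer or of its dimer, made up 6.12% of the genome outside genes. By fold, the authors' own ratio for each peak over its background, these were weak peaks. Fold describes a peak within its own list. Where folds of a site in different lists stand side by side here, their difference was not tested. It is not a measured change, since depth is unknown. The median was 2.69 in the control list, where start-site peaks had 4.30, and the range was 1.27 to 5.73. For U2AF1 knockdown it was 3.25 beside a start-site median of 5.09, and for DHX9 knockdown 2.89 beside 5.44. The strongest control peak over 100 kb from a gene, the alpha unit shown above, had a fold of 5.34 and lay 1193 kb from LINC01691. The strongest such peaks of the knockdown lists were alpha satellite too. For U2AF1 knockdown the highest fold, 5.24, was shared by peaks on chromosomes 1, 7 and 13, and for DHX9 knockdown it was 5.91, on chromosome 7.

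Chromosomes 1, 5 and 19 carried most of the control alpha satellite peaks, 118 or 58.7% (51.8 to 65.3%), on 15.8% of the alpha satellite sequence. That was 11.1 peaks per Mb of alpha satellite, beside 1.46 per Mb on the other chromosomes. In the U2AF1 knockdown list the same chromosomes held 43 of 65, at 4.03 beside 0.386 per Mb, and in the DHX9 knockdown list 10 of 23, at 0.937 beside 0.228 per Mb. These chromosomes are known to share a family of alpha satellite with a dimeric unit, and in the unit shown above 165 bases, or 96.5%, recurred 340 bp downstream. In the control peaks on each of them, the median share of the 32-base words found on all of chromosomes 1, 5 and 19 was 100%. The median number of exact genome copies of those words was 1970 on chromosome 1, 1966 on chromosome 5 and 2031 on chromosome 19. Which of the arrays gave the reads cannot be told apart. In the DHX9 knockdown list, 9 of the 10 were on chromosome 5 and 1 on chromosome 1. Outside these arrays, chromosome 4 held 17 control alpha satellite peaks, chromosome 7 held 11, and chromosomes 11 and 17 held 10 each.

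The consensus CENP-B box, searched on both strands, was present within 2 kb of 197 control alpha satellite summits and absent at 4. It was present around 64 of 65 in the U2AF1 knockdown list and 22 of 23 in the DHX9 knockdown list. It occurred in 83.9% of all alpha satellite windows and in 5.22% of all windows of this length outside genes. A match is a description of the letters and not a measured binding site. Of the control alpha satellite peaks, 172 overlapped no peak of another list, and of all control peaks in scope 28.7% overlapped none. Another 8 overlapped peaks of both knockdown lists. Of all control members 9.46% overlapped both, and of the other control peaks in scope 32.2%.

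CATTC satellite was the group of lowest fold, yet its control peaks were highly significant. It held 45 control peaks or 15.2% (11.6 to 19.7%), 21 U2AF1 knockdown peaks or 12.3% (8.17 to 18.0%) and 13 DHX9 knockdown peaks or 7.22% (4.27 to 12%), on 0.167% of the sequence outside genes. A summit was counted when CATTC or GAATG covered at least 15% of the bases within 500 bp of it. Median folds were 1.43, 1.36 and 1.70 in the same order. The median of the authors' −log10 q was 24.9 in the control list, where start-site peaks had 7.66. In the U2AF1 knockdown list it was 10.0 beside 5.98, and in the DHX9 knockdown list 7.06 beside 6.40. These peaks thus combined a small ratio with a small q.

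The CATTC peaks lay in few blocks, and the counts below are of peaks in this group only. The block at 143.2 to 143.3 Mb of chromosome 1 held 22 control peaks, with folds of 1.26 to 2.02 and a −log10 q of up to 149, beside 7 U2AF1 knockdown and 2 DHX9 knockdown peaks. On chromosome 16, the block at 46.39 to 46.40 Mb held 8 control, 5 U2AF1 knockdown and 0 DHX9 knockdown peaks. Other blocks had the higher count in a knockdown list. On chromosome 4, 49.10 to 49.15 Mb held 5 DHX9 knockdown peaks and 2 in each other list. On chromosome 5, 49.60 to 49.66 Mb held 4 DHX9 knockdown, 3 U2AF1 knockdown and 0 control peaks of this group. The control list did have peaks there. Places classed as alpha satellite, with a peak in every list, lay in the same stretch, with control folds of 2.95, 2.48, 1.96 and 1.91.

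Telomere repeats lay under 8 control, 3 U2AF1 knockdown and 6 DHX9 knockdown summits. Windows of which such words covered at least 50% made up 0.000697% of the sequence outside genes, so the peaks fell on a very small target. In the control list the median fold was 6.76, above the start-site median of 4.30, with a range of 3.61 to 12. The highest was the repeat at the left end of chromosome 12, 2.23 kb from the pseudogene DDX11L8, at rank 77 of 2757 by fold, and neither knockdown list had a peak there. The left end of chromosome 10 had folds of 8.70 in the control, 3.40 in the U2AF1 knockdown and 3.85 in the DHX9 knockdown list. The right end of the X chromosome had 8.31, 2.74 and 6.00, and the left end of chromosome 5 had 6.95, 2.47 and 5.93. These ends were the telomere repeats with a peak in every list. The 32-base words there had a median of 903 exact copies, and which chromosome end gave the reads cannot be told apart.

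**Figure D2:**
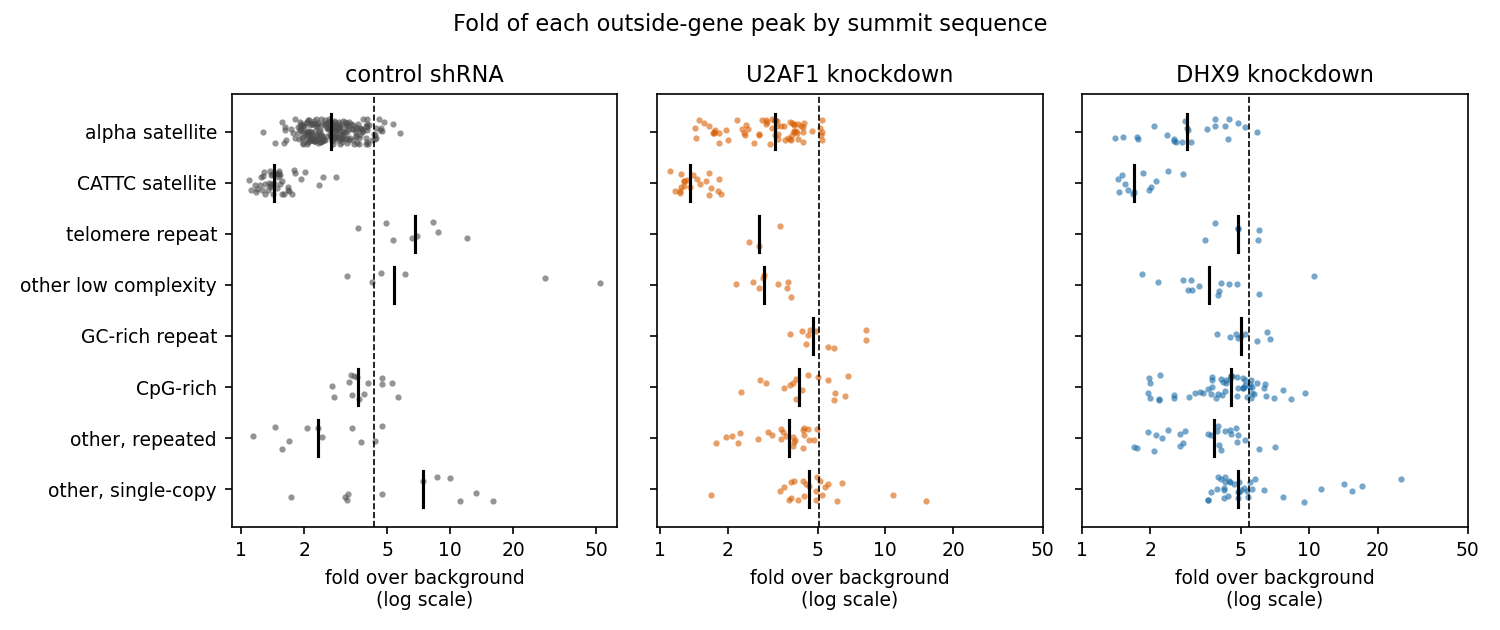
Each point is 1 outside-gene peak, placed by its fold over background on a log axis, with the median of each group as a bar and the median of the list's start-site peaks as a dashed line. In the control list the alpha satellite median of 2.69 lies left of the dashed line at 4.30, and the telomere repeat median of 6.76 lies right of it.

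Simple sequence of other kinds gave the strongest outside-gene peak of the control list. A low-complexity site on chromosome 7, 4.77 kb from the lncRNA gene ENSG00000234210, had a fold of 52.0, a −log10 q of 434 and rank 2 of 2757. The DHX9 knockdown list had a fold of 10.5 there, at rank 170 of 4443, and the U2AF1 knockdown list had no peak. The control member next in fold, 28.4 at rank 10, lay on chromosome 11, 3.01 kb from the lncRNA gene ENSG00000255260, where the DHX9 knockdown list had 6.03 and the U2AF1 knockdown list again no peak. Both sites were of low complexity, which means a trinucleotide entropy under 4 bits in the bases within 100 bp of the summit, where few of the possible triplets occur. Entropy was 1.97 bits at the first and 2.49 at the second.

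Low-complexity sequence, telomere and satellite windows included, held 17 control members or 5.74% (3.62 to 9.0%), 15 in the U2AF1 knockdown list or 8.77% (5.39 to 14%) and 28 in the DHX9 knockdown list or 15.6% (11.0 to 21.6%). Among the other peaks the shares were 0.427%, 0.142% and 0.245%, and among all windows outside genes 0.342%. Without telomere and satellite sequence 6, 9 and 14 members remained. On chromosome 16, simple sequence near ENSG00000282973 carried 3 DHX9 knockdown peaks with folds of 2.77, 2.93 and 3.28 and U2AF1 knockdown peaks of 2.90 and 3.81, and no control peak of this group lay there.

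A family of GC-rich repeats, defined on the outside-gene peaks themselves, had peaks in both knockdown lists and none in the control list. It comprised 10 U2AF1 knockdown peaks or 5.85% (3.21 to 10.4%), 9 DHX9 knockdown peaks or 5.00% (2.65 to 9.23%), and 0 of 296 control peaks, which allows a control share of up to 1.0%. Its windows held at least 70% G and C and at least 20 of the 20-base words found at 5 or more outside-gene places. Members without satellite and telomere sequence numbered 42 control, 82 U2AF1 knockdown and 138 DHX9 knockdown. Most summits that could supply such words were therefore from the knockdown lists, and the control count of 0 depends in part on the definition. The share of this family in the sequence outside genes was not computed. At start sites and in genes, the family lay under 18 of 1406 U2AF1 knockdown peaks (1.28%), 12 of 4085 DHX9 knockdown peaks (0.294%) and 0 of 2342 control peaks. The same words were used there, so the same limit applies. The site 1.31 kb from BCKDK, the kinase of the branched-chain keto acid dehydrogenase, had folds of 8.24 in the U2AF1 knockdown and 5.91 in the DHX9 knockdown list. A site 21.8 kb past the end of MARCHF5, a mitochondrial ubiquitin ligase gene, had 8.19 and 6.72, and one near RAD54L, a gene of homologous recombination, had 4.63 and 6.52. Sites near CAMP, CYP2B7P and MACROD1 also had a peak in both lists, with folds of 4.46 to 5.00. The median number of exact genome copies of the words in these windows was 250 for U2AF1 knockdown and 218 for DHX9 knockdown.

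CpG-rich sequence was the largest group of the DHX9 knockdown list. It held 55 of 180 peaks there, or 30.6% (24.3 to 37.6%), beside 16 in the U2AF1 knockdown list, or 9.36% (5.84 to 14.7%), and 14 of 296 in the control list, or 4.73% (2.84 to 7.78%). The group required at least 60% G and C and CpG at no less than 0.6 of the number that base composition gives, as in the CpG islands of many promoters. Of all windows outside genes 0.232% met this, and of the other peaks 86.2% in the control, 81.4% in the U2AF1 knockdown and 88.0% in the DHX9 knockdown list. The site on chromosome 17 shown above, 5.39 kb past the end of the lncRNA gene ENSG00000289140, had folds of 3.37 in the control, 6.00 in the U2AF1 knockdown and 9.57 in the DHX9 knockdown list. The site 4.37 kb from WASH9P, a pseudogene of the WASH actin regulators, had 4.70, 5.89 and 8.32. The site 8.62 kb from GRIN1, which encodes an NMDA receptor subunit, had 2.71, 4.02 and 7.0. These were the CpG-rich places with a peak in every list. Of the 55 DHX9 knockdown peaks 39 overlapped no peak of another list, and of all DHX9 knockdown peaks in scope 51.4% overlapped none.

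Some members lay in genes of another annotation or beside genes of other polymerases. The summit was inside a RefSeq gene for 8 control, 8 U2AF1 knockdown and 25 DHX9 knockdown members, and 4, 4 and 12 of these were CpG-rich. One such gene, LOC124904058 near CDR2L on chromosome 17, lay under a U2AF1 knockdown peak with a fold of 5.54 and a DHX9 knockdown peak with 5.49. A tRNA gene, transcribed by RNA polymerase III, lay within 1 kb of 1 control, 1 U2AF1 knockdown and 3 DHX9 knockdown summits. Those were 0.338%, 0.585% and 1.67% of the members, beside 0.213%, 0.427% and 0.343% of the other peaks in scope. The control summit was 182 bp from TRN-GTT2-4, and the nearest in the DHX9 knockdown list was 105 bp from TRL-TAA1-1. In the tandem array of 5S rRNA genes on chromosome 1, also read by RNA polymerase III, 5 DHX9 knockdown summits lay 1000 to 1613 bp from the nearest copy, with folds of 1.98 to 2.54. The U2AF1 knockdown list had 1 member there and the control list 0. Since the rule leaves out summits within 1000 bp of a start, these counts do not cover every peak of the array. These genes were singled out after their values had been seen.

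Repeated DNA of no named group held 11 control, 24 U2AF1 knockdown and 26 DHX9 knockdown peaks. Its places in all 3 lists were weak. The site 1.78 kb past the end of UVSSA, a gene of transcription-coupled repair, had folds of 2.07, 2.09 and 2.38. Counting all groups, the summit sequence was repeated, with a median of at least 2 exact genome copies of its 32-base words, in 269 control members or 90.9% (87.1 to 93.7%). It was repeated in 135 U2AF1 knockdown members or 78.9% (72.2 to 84.4%) and in 105 DHX9 knockdown members or 58.3%. Among the other peaks the shares were 4.53%, 13.8% and 6.22%.

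The single-copy group, what remained after the other groups were assigned, held 11 control, 23 U2AF1 knockdown and 34 DHX9 knockdown peaks. These were few members, but among them were most of the strong peaks shared by the lists. The group is not all single-copy DNA, since median copies of the CpG-rich members were 1.00, 2.50 and 1.00 in the same order. The site 3.76 kb past the end of CYP1A2, a cytochrome P450 gene, had folds of 16.1 in the control, 6.07 in the U2AF1 knockdown and 15.5 in the DHX9 knockdown list, at ranks 48, 361 and 80. The site on chromosome 2, 6.23 kb past the end of the lncRNA gene ENSG00000234455, had 13.3, 15.1 and 25.5 and was the strongest outside-gene peak of both knockdown lists. The site on the X chromosome 3.72 kb past RNU7-56P, a U7 snRNA pseudogene, had 11.1, 10.8 and 9.52. All of these exceeded the start-site median of their own list. The site 30.1 kb from GNA12, a G protein gene, had folds of 9.98, 6.40 and 17.1, and the site 10.6 kb from CCDC200 had 8.67, 5.12 and 14.2. The site 11.5 kb from the pseudogene TRPC6P5 had 7.39, 4.99 and 4.90, and the site 6.91 kb from the olfactory receptor gene OR6J1 had 4.71, 5.37 and 11.3. These were less uniform, since the TRPC6P5 site lay below the start-site median of both knockdown lists.

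All 7 of these places of the single-copy group had the octamer ATGCAAAT, on either strand, within 500 bp of the control summit. Only at CYP1A2 did it lie inside a peak. At the others it lay beyond the peaks of every list. It lay from -480 to 402 bp from the summit, counted towards higher coordinates, and was never nearer than 311 bp. The octamer was present near 4 of the 43 places of this group with a peak in 1 list and 1 of the 2 with peaks in 2 lists. Places of other groups with a median of 1 copy and a peak in every list had no octamer within 500 bp. They were the CpG-rich places near ENSG00000289140 and GRIN1 and the CATTC place near IGKV2D-40. The pattern thus holds for the group and not for all single-copy DNA. Of all windows of this size outside genes 10.8% held the octamer, and of start-site peaks 3.39% in the control, 2.97% in the U2AF1 knockdown and 2.4% in the DHX9 knockdown list. Of the start-site peaks whose nearest gene was an snRNA gene, 4 of 18 held it in the control list, 1 of 18 for U2AF1 knockdown and 1 of 19 for DHX9 knockdown. The motif was chosen after these sequences had been seen, so the counts describe them and support nothing further. At a limit 100 bp shorter 4 of the 7 had it that near the control summit, beside 8.75% of windows.

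**Figure D3:**
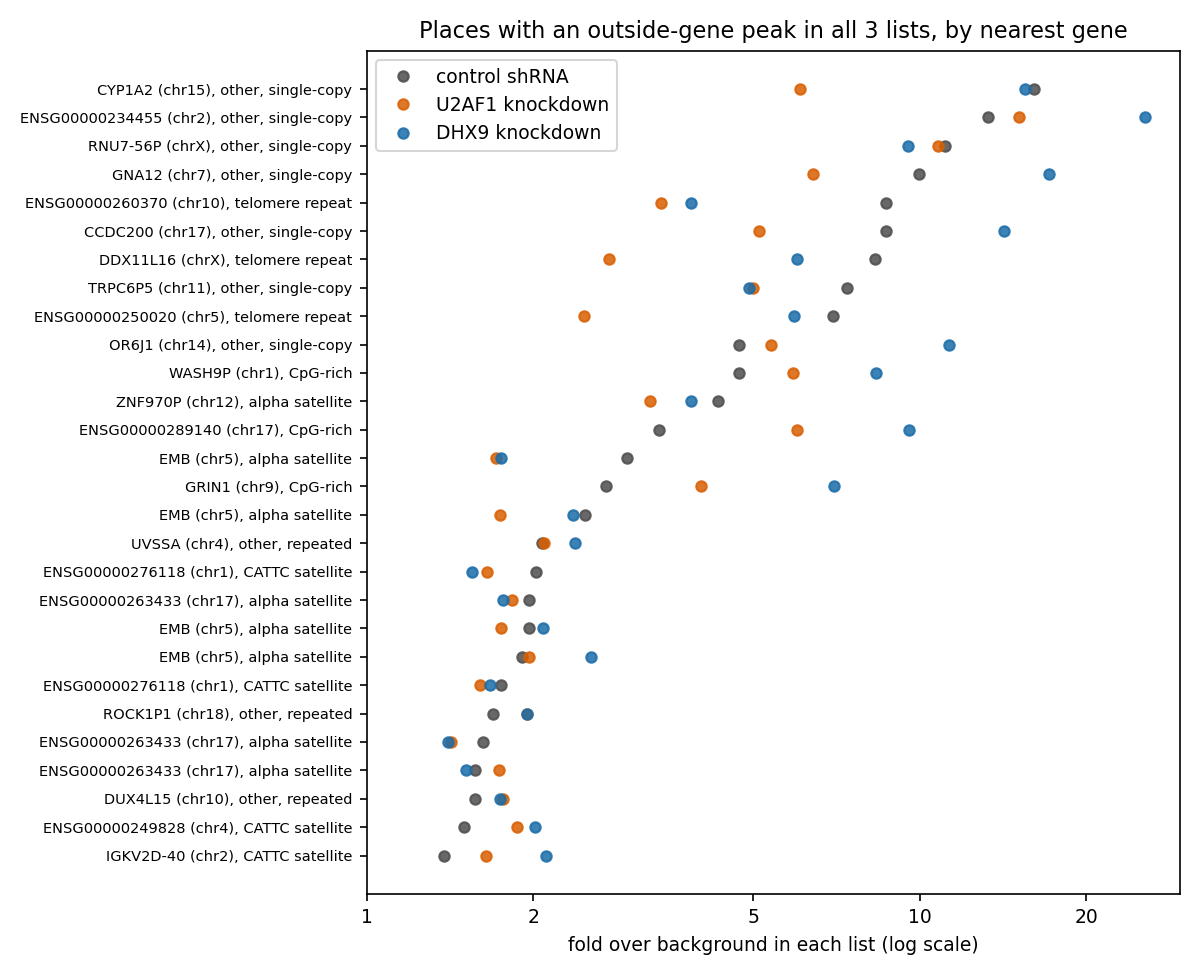
Each line is 1 of the 28 places with an outside-gene peak in every list, named by its nearest gene, and the points give its fold over background in each list on a log axis. Places of the single-copy group stand in the upper part, with CYP1A2 at 16.1, 6.07 and 15.5, and satellite places stand mostly below 3.

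With full lists, the share of members overlapped by another list lay below the share over all peaks in scope in 5 of 6 directions. A U2AF1 knockdown peak overlapped 60 of 296 control members by at least 1 bp, or 20.3% (16.1 to 25.2%), beside 33.9% of all control peaks in scope. A DHX9 knockdown peak overlapped 44, or 14.9% (11.3 to 19.4%), beside 67.1%.
Of the U2AF1 knockdown members, 61 or 35.7% (28.9 to 43.1%) overlapped a control peak, beside 57.0% of all peaks in that list, and 52 or 30.4% (24 to 37.7%) overlapped a DHX9 knockdown peak, beside 68.9%. Of the 180 DHX9 knockdown members, 44 or 24.4% (18.7 to 31.2%) overlapped a control peak, beside 41.5%. The exception was their overlap with U2AF1 knockdown peaks, 56 or 31.1% (24.8 to 38.2%), beside 25.3%. With the same number of most significant peaks from each list, 15.8% of U2AF1 knockdown members overlapped a DHX9 knockdown peak, beside 44.6% of all peaks. Of the 47 DHX9 knockdown members then left, 57.4% overlapped a U2AF1 knockdown peak, beside 42.4%, and 51.1% a control peak, beside 53.4%. That last share was near the share over all peaks. Joined by overlap, the members made up 515 places, of which 416 had an outside-gene peak in 1 list, 71 in 2 and 28 in all 3. Such joining was not done for all peaks, so these counts cannot show whether 416 is unusual for lists of unequal length. Peaks of both other lists overlapped 9.46% of control members (6.63 to 13.3%), 16.4% for U2AF1 knockdown (11.6 to 22.6%) and 15.6% for DHX9 knockdown (11.0 to 21.6%). Among the other peaks in scope these shares were 32.2%, 53.6% and 18.4%. The 28 comprised 8 alpha satellite, 4 CATTC, 3 telomere, 3 CpG-rich, 3 other repeated and 7 single-copy places.

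By position, the members of the control list were mostly far from genes and near centromeres. Their median distance to the nearest gene was 776 kb, beside 69.2 kb in the U2AF1 knockdown list and 10.7 kb in the DHX9 knockdown list. Over 100 kb from every gene lay 217 control members or 73.3% (68.0 to 78%), 74 U2AF1 knockdown members or 43.3% (36.1 to 50.8%) and 27 DHX9 knockdown members or 15% (10.5 to 20.9%), beside 16.3% of the sequence outside genes. The lists lay closer together once satellites were set aside. Without satellite and telomere sequence, the medians were 6.98 kb for 42 control, 7.42 kb for 82 U2AF1 knockdown and 7.65 kb for 138 DHX9 knockdown members.

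**Figure D4:**
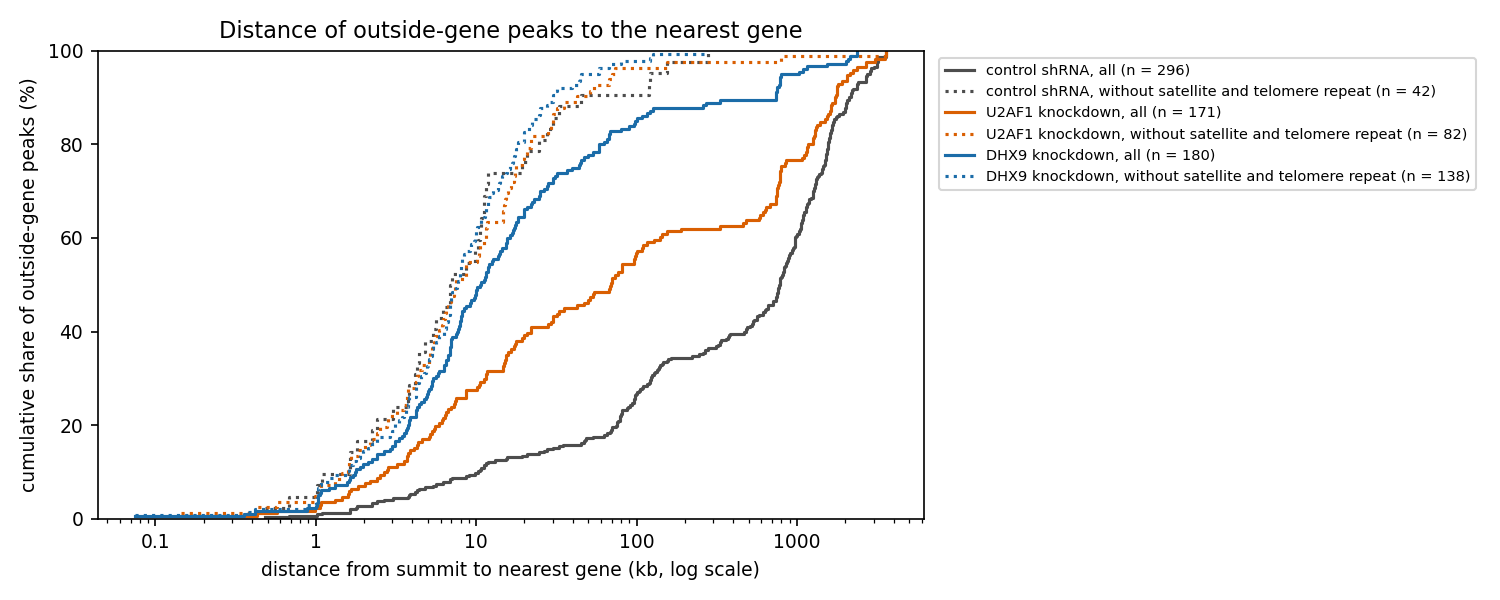
Lines give the cumulative share of outside-gene peaks, in percent, by distance from summit to nearest gene in kb on a log axis, for all members (solid) and without satellite and telomere repeat (dotted). The solid lines are far apart, with medians of 776, 69.2 and 10.7 kb, and the dotted lines lie close together, with medians of 6.98, 7.42 and 7.65 kb.

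Near genes, 20 control members or 6.76% (4.42 to 10.2%), 29 U2AF1 knockdown members or 17% (12.1 to 23.3%) and 48 DHX9 knockdown members or 26.7% (20.7 to 33.6%) lay within 5 kb of one, beside 17.4% of the sequence. The gene had its end towards the peak for 12, 16 and 32 of these and its start for 8, 13 and 16. Since the rule removed the first 1000 bp around starts, the sides are not equal targets. The member nearest to a transcript start was 1630 bp away in the control list, at a fold of 3.76, and the nearest peak just left out was 917 bp away, at 1.22. These were 1082 and 952 bp in the U2AF1 knockdown list, at folds of 3.02 and 2.61, and 1058 and 957 bp in the DHX9 knockdown list, at 4.37 and 2.27.

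Within 1 Mb of the centromere, taken as the longest alpha satellite stretch of a chromosome, lay 214 control members or 72.3% (66.9 to 77.1%). The U2AF1 knockdown list had 78 or 45.6% (38.3 to 53.1%) and the DHX9 knockdown list 37 or 20.6% (15.3 to 27.0%). Other peaks, which by the rule lie in genes or near starts, had 0.342%, 0.782% and 0.465% there, and the sequence outside genes 7.28%. Within 1 Mb of a chromosome end lay 12 control members or 4.05% (2.33 to 6.95%), 15 U2AF1 knockdown members or 8.77% (5.39 to 14%) and 19 DHX9 knockdown members or 10.6% (6.86 to 15.9%), beside 1.07% of the sequence. Other peaks had 4.27%, 5.48% and 5.04% there, so nearness to an end was not confined to the members.

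Chromosome 1 held the most control members, 69, followed by chromosome 5 with 45 and chromosome 19 with 40. Per 10 Mb of sequence outside genes, chromosome 19 had 23.2 control members, beside 2.68 over all chromosomes. Chromosome 21, with no alpha satellite stretch in scope, had 0, and the X chromosome had 2. The U2AF1 knockdown list had 36 members on chromosome 1, 18 on chromosome 5 and 14 on chromosome 19. The DHX9 knockdown list had 22 on chromosome 5, 21 on chromosome 1 and 14 on chromosome 2, and 3 of its 21 on chromosome 1 were satellite.

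**Figure D5:**
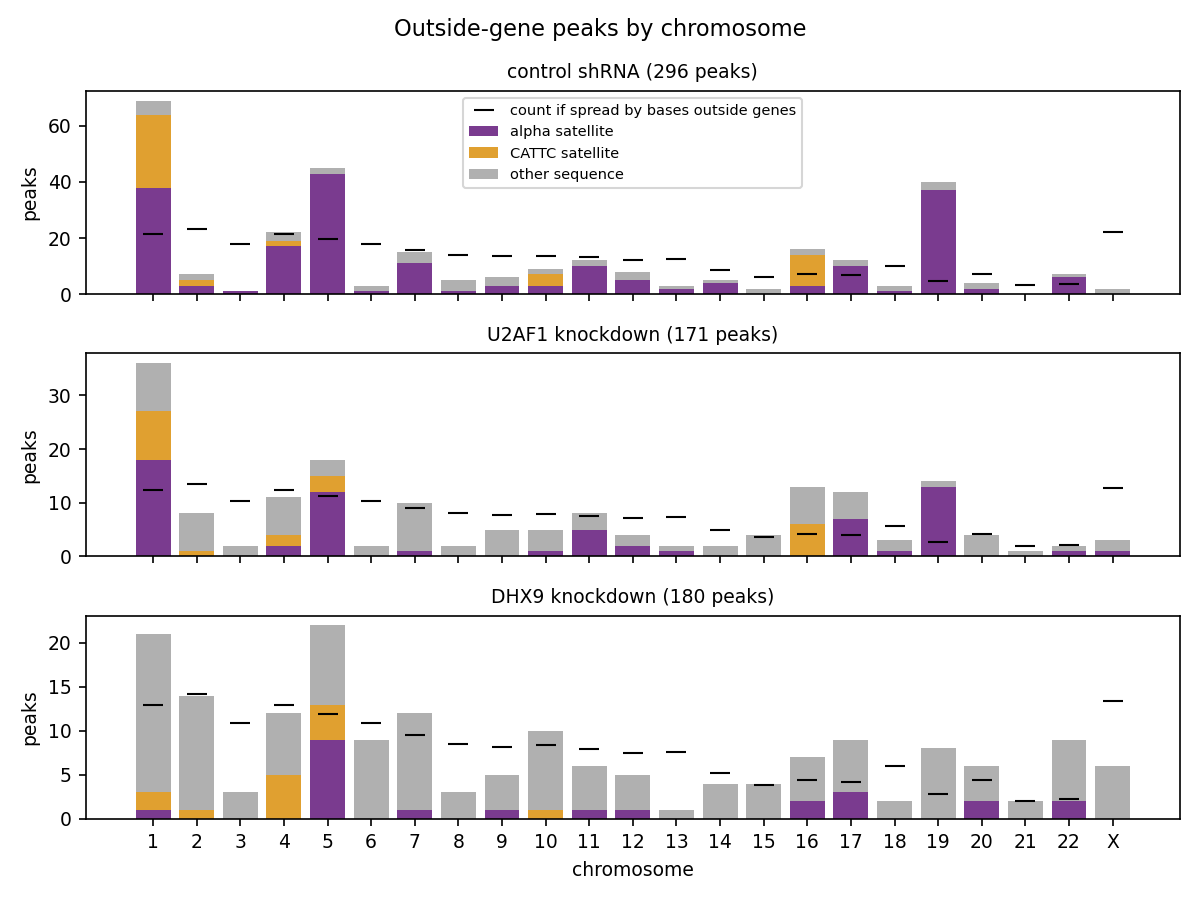
Bars count outside-gene peaks on each chromosome in each list, split into alpha satellite, CATTC satellite and other sequence, and black marks show the count if the list's members were spread by bases outside genes. Chromosomes 1, 5 and 19 stand above their marks in the control list, with 69, 45 and 40 peaks.

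Within each list the members were weaker than start-site peaks at the median. Their median fold was 2.66 in the control list (1.09 to 52.0), 3.55 for U2AF1 knockdown (1.10 to 15.1) and 4.23 for DHX9 knockdown (1.40 to 25.5). Without satellite and telomere sequence the medians were 3.70, 4.05 and 4.46, still under the start-site medians of 4.30, 5.09 and 5.44. Of the 100 highest folds in each list, 6 control, 2 U2AF1 knockdown and 4 DHX9 knockdown peaks were outside genes. Among all peaks in scope the shares were 11.2%, 10.8% and 4.22%, so the DHX9 knockdown count was near its overall share.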

How the data were processed

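RNA polymerase II ChIP-seq peaks from 9 samples (6 ChIP, 3 input) were deposited as 3 lists, 1 per condition, and each list was 1 unit. The submitters' processing notes name hg38, Bowtie2 2.4.5, deepTools 3.5.1 and MACS2 2.2.7.1; how peaks were called and whether replicates were pooled are not given in the sources used here. The deposited fold is a ratio over background made by the authors, and −log10 p and −log10 q are likewise the authors' values. No depth was given.

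Summits were compared with GENCODE 44 genes, RefSeq genes and GRCh38 sequence, using Python 3.11.15, numpy 2.4.6, pandas 2.3.3, scipy 1.17.1, numba 0.67.0 and pysam 0.24.0. Windows were 201 bases for entropy, GC and copies, 1001 for CATTC and the octamer and 4001 for the alpha period. Alpha satellite also needed GC under 45% and entropy of at least 5 bits. The sequence outside genes was sampled every 100 bp. Groups were assigned in the order telomere, CATTC, alpha, low complexity, GC-rich repeat, CpG-rich, repeated, single-copy. Some sequences are not reported here. The scripts were tested on simulated data.

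The members numbered 296, 171 and 180 in the control, U2AF1 and DHX9 knockdown lists, of which 201, 65 and 23 lay in alpha satellite; at a −log10 q of at least 5, 171 control members remained. Shares have 95% Wilson intervals, and a count of 0 allows up to 3. No test was run, since 1 list per condition has no replicates. Members and lists were chosen with earlier results of these data known, and sequence groups and the octamer after the sequences were seen. Named by rule were the 5 highest folds per list, the 10 places of highest control fold in all 3 lists, the highest over 100 kb from genes, within 5 kb past a gene end and at entropy of at least 5 bits, and the fullest chromosomes; other named sites were chosen after their values were seen. Alternatives covered significance, distance, annotation, merging, overlap, entropy and copy thresholds.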

Additional observations from a re-analysis of the deposited data

How the results depend on the processing

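Of 197 values under alternatives, 148 stayed within their interval or within 1.5 times the count and 49 moved. Lists are given in the order control, U2AF1 knockdown, DHX9 knockdown. Restricted to a −log10 q of 5 or more, the control list kept 1.7e+02 members and the knockdown lists 81 each, and members made up 9.09%, 8.87% and 2.98% of peaks. Low complexity then held 9.36% and the centromere region 61.4% of control members, 46.9% of U2AF1 knockdown and 35.8% of DHX9 knockdown members overlapped a control peak, beside 66.9% and 44.2% of all peaks of these lists, and the DHX9 knockdown median fold was 5.17. With the same number of most significant peaks from each list, the control list had 143 members (8.63%), with 11.2% in low complexity, 7.69% near an end, 58.0% near a centromere, a median fold of 2.36 and 30.8% overlapped by the U2AF1 knockdown list, beside 44.5% of all control peaks. The U2AF1 knockdown overlaps were then 26.3% with the control, beside 47.2% of all peaks, and 15.8% with the DHX9 knockdown list, beside 44.6%. That list had 47 members (2.86%), with 25.5% in low complexity, 17% near an end, a median fold of 5.91, and overlaps of 51.1% with the control, beside 53.4% of all peaks, and 57.4% with the U2AF1 knockdown list, beside 42.4%. Fewer peaks enter both settings.

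Over 5000 bp from a start, 2.13%, 5.33% and 10.2% lay within 5 kb of a gene, 1.77% of control members near an end, and the DHX9 knockdown share was 3.45%. Against protein-coding and lncRNA genes alone, U2AF1 and DHX9 knockdown shares were 14.5% and 5.72%. Low complexity under 4.5 bits held 17.2%, 19.3% and 21.7%, and under 3.5 bits 3.51% and 7.78% in the U2AF1 and DHX9 knockdown lists. At 10 or more copies, repeated summits were 81.1%, 58.5% and 34.4%. In the U2AF1 and DHX9 knockdown lists, 15.2% and 20.0% lay within 5 Mb of an end, 54.4% and 29.4% within 5 Mb of a centromere, and 27.5% and 48.3% within 10 kb of a gene. With the octamer limit shortened by 100 bp, 4 of the 7 shared places of the single-copy group had the octamer that near the control summit. This alternative was chosen after seeing the data, as were those for alpha and CATTC thresholds, which moved no value. Merging peaks, other overlap definitions and requiring the whole peak outside genes moved no value. No paired analysis was possible because the replicates of a condition share 1 list, and no replicate could be left out for that reason. Depth is unknown, so list length and depth cannot be told apart from condition.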
